A study of Caenorhabditis elegans with 14 samples.

Results

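The levels of 10 RNA-binding regulators of the oocyte and early embryo were followed in RNA-seq counts of whole Caenorhabditis elegans larvae with deletions in the IκB homologs nfki-1, ikb-1 or both. The genes were oma-1, oma-2, mex-5, mex-6, pie-1, mex-1 and pos-1, which encode CCCH zinc finger proteins, mex-3, which encodes a KH domain protein, spn-4, which encodes an RRM protein, and puf-5, which encodes a PUF repeat protein. They were chosen by name, as 10 of the 42048 gene rows of the count files, and all 10 were among the 21293 genes that passed a filter on low counts set over the whole table.

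The series held 14 count files in 7 groups of strain and stage. At L4, the last larval stage, animals grown for 36 h at 25 °C were N2(Bristol) wild type (WT), CER178 nfki-1(cer1)X, CER185 ikb-1(nr2027)I and CER188, which carries both of these alleles and is called the combined mutant here. At L1, the earliest larval stage, animals fed for 5 h and then starved for 3 h at 25 °C were N2(Bristol) WT, CER187 nfki-1(cer2)X and CER244 ikb-1(cer9)I. The cer1 allele removes 368 bp near exon 2 of nfki-1 and cer2 removes 434 bp of that exon and inserts 50 bp, both with a premature stop, while nr2027 removes 1911 bp of ikb-1 with its ankyrin repeats and cer9 removes 462 bp with the start codon. Since the mutant alleles differ between the stages, which also differ in read depth and may have been sequenced apart, stage and allele cannot be told apart for the mutants. The tissue is labelled as whole animal, so fewer cells of a type and less RNA per cell cannot be told apart either. The deposited extract protocol also describes collagenase digestion, cell sorting and amplification of cDNA by LD-PCR, while the methods name only extraction of total RNA from washed worms, and which of these steps were applied is not settled by the sources used here.

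Eggs of this worm are loaded with mRNAs that stay silent until they are needed, because the early embryo makes little RNA of its own. RNA-binding proteins deposited in the oocyte hold these mRNAs back, release them in the right cells, and keep the germ lineage apart from the soma until the embryo's own genome takes over. Their own mRNAs are known as products of the late, oocyte-forming part of the adult hermaphrodite germline.

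The 8 L4 files held 19735958 to 22373456 reads on genes and the 6 L1 libraries 57740500 to 63394016. Between the paired L4 files of a strain, counts of 4513 genes with 50 to 1000 counts in the pair differed by 3.31 to 3.87 times the counting variance, and by 0.462 to 0.524 times once the difference shared with the other strains was removed. Beyond that shared part, L4 files of a strain differed by less than sampling noise, so they were counted as 1 sample with summed counts, whereas the L1 libraries kept 6.17 to 11.3 times the counting variance over 5779 genes. The targeted genes followed the labels: nfki-1, listed as C33A11.1, stood at 42.4 counts per 1000000 reads (CPM) in WT L4, 7.59 in nfki-1(cer1) and 8.35 in the combined mutant, and at 140 ± 3.95 (SD, n = 2) in WT L1 against 80 ± 13.9 (SD, n = 2) in nfki-1(cer2). Reads on ikb-1 came to 13.4 CPM in WT L4, 3.76 in ikb-1(nr2027) and 3.17 in the combined mutant, and to 46.4 ± 2.01 (SD, n = 2) in WT L1 against 2.05 ± 0.782 (SD, n = 2) in ikb-1(cer9). Each gene was also lower than in WT L4 in the single mutant of the other, with ikb-1 at 6.43 CPM in nfki-1(cer1) L4 and nfki-1 at 27.4 CPM in ikb-1(nr2027) L4.

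At L4 all 10 genes were far higher in every mutant than in WT. Their summed level was 87 CPM in WT, 2673 for nfki-1(cer1), 2366 for ikb-1(nr2027) and 660 for the combined mutant, or 0.00641%, 0.273%, 0.231% and 0.0556% of the reads. At L1 the sums were 51.2 CPM in WT, 40.9 for nfki-1(cer2) and 55.4 for ikb-1(cer9). The order nfki-1(cer1), ikb-1(nr2027), combined mutant, WT held for each of the 10 genes at L4, and the share of all genes with this order was not computed.

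**Figure D1:**
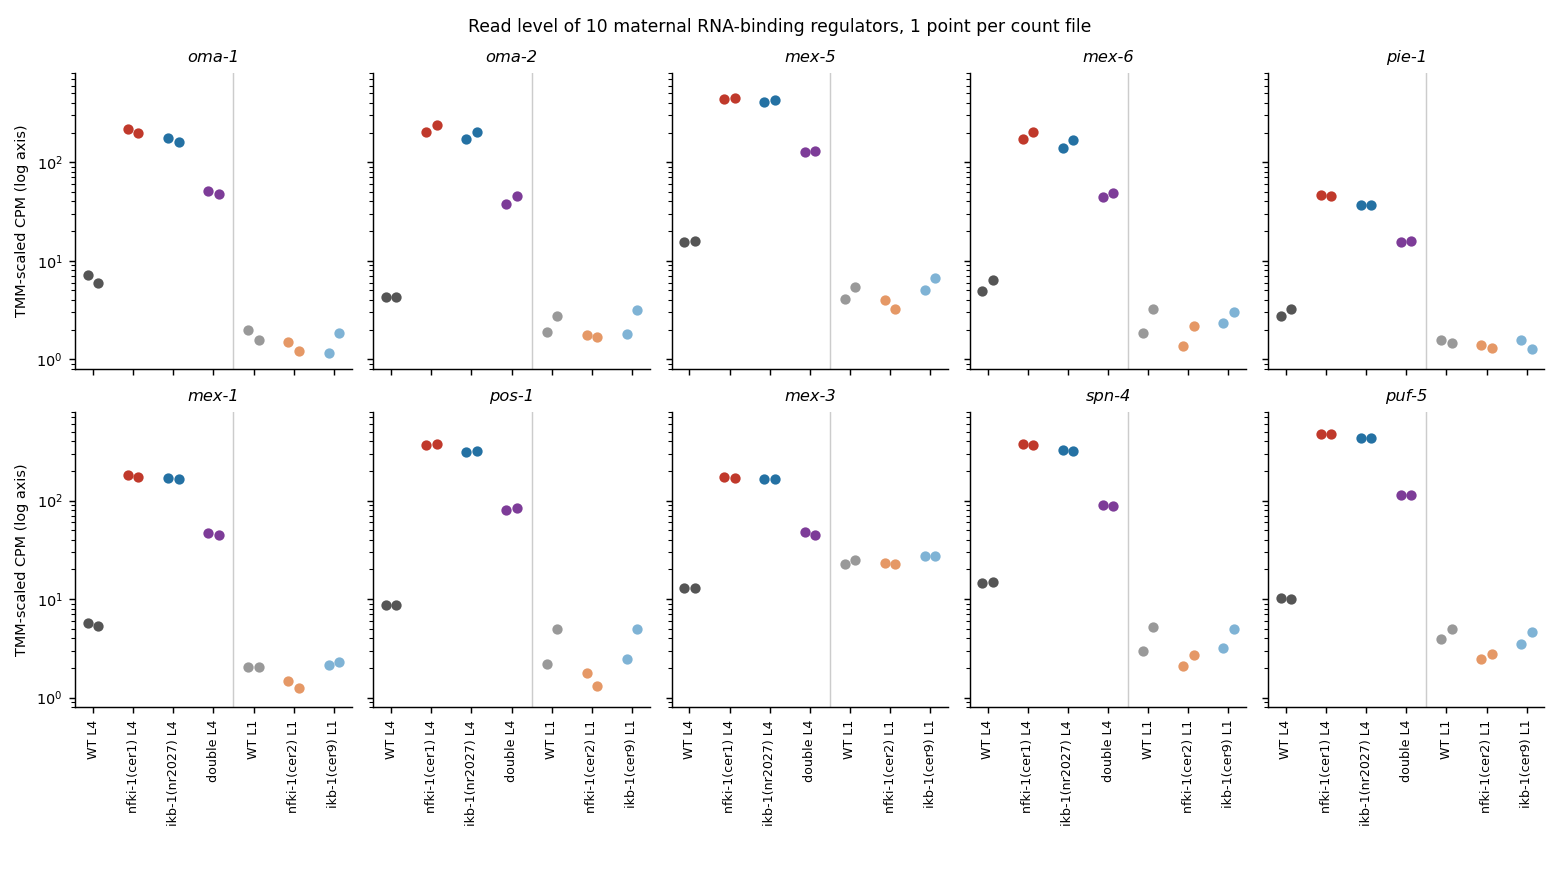
Level of each gene in CPM scaled by TMM (log axis) in the 14 count files, with 1 point per file and the 7 groups along the horizontal axis ("double" is the combined mutant), L4 left and L1 right of the grey line. In each panel the points of the L4 mutants stand apart from those of WT and in the same order, and mex-3 is the gene whose L1 level (22.9 to 27.4 CPM) exceeds that of WT L4 (12.9 CPM).

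A gene was taken as past the fold at L4 where its log2 ratio to WT was at least 2, and no test goes with this count because each strain was 1 sample. Ratios carry an exact binomial 95% interval on the summed counts, which covers counting error only. This interval is likely too narrow, because the paired files differed by 0.462 to 0.524 times the counting variance beyond their shared difference. In nfki-1(cer1) 10 of 10 genes were past the fold, where 10.5% of all genes were higher by that much. In ikb-1(nr2027) they were again 10 of 10 against 9.52% of all genes, and in the combined mutant 9 of 10 against 6.65%. The median log2 ratio of the 10 genes was 4.99 for nfki-1(cer1), 4.75 for ikb-1(nr2027) and 3.04 for the combined mutant, beside a median of 0.00 over all 21293 genes in each comparison. With library totals alone in place of TMM the 10 ratios were larger, with medians of 5.46, 5.16 and 3.23, mex-3 also passed the fold in the combined mutant (2.03), and the split of all genes past the fold moved from 2243 higher and 1410 lower to 3215 and 791 in nfki-1(cer1), from 2028 and 1094 to 2821 and 647 in ikb-1(nr2027), and from 1415 and 588 to 1732 and 418 in the combined mutant.

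**Figure D2:**
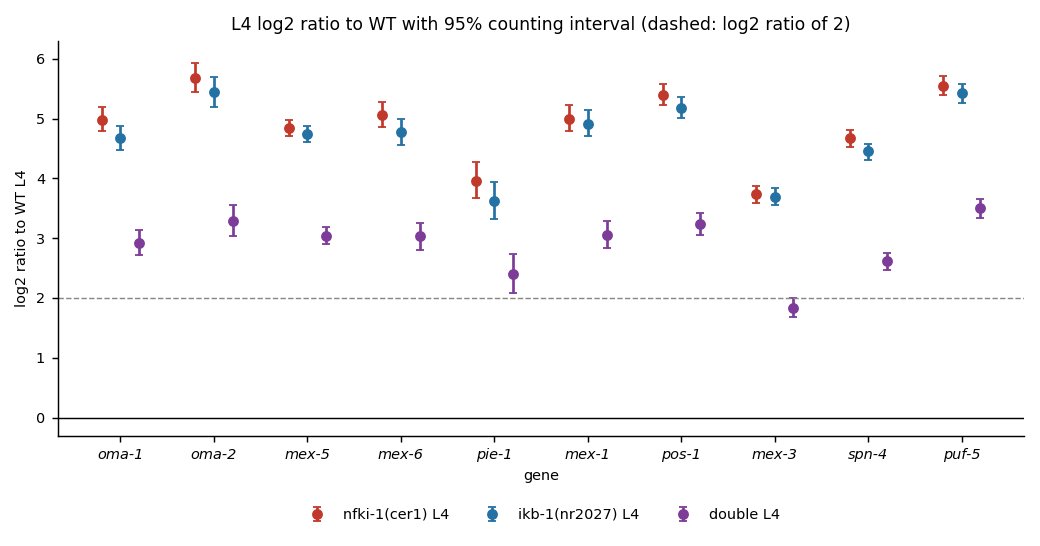
Log2 ratio to WT L4 of each gene (horizontal axis) in the combined mutant ("double") and in the single mutants, nfki-1(cer1) and ikb-1(nr2027), with 1 point per strain with bars for the exact binomial 95% counting interval. The single mutants lie together between 3.62 and 5.68, the combined mutant lies lower at every gene, and mex-3 in the combined mutant (1.84) is the 1 point under the dashed line at 2.

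The oocyte maturation pair comes first. OMA-1 and OMA-2 are redundant zinc finger proteins that oocytes need in order to mature and that repress maternal mRNAs until the egg is activated. The gene oma-1 lies on chromosome IV (8888976 to 8890999, WBcel235) and oma-2 on chromosome V (8029439 to 8031214). In the L4 files oma-1 had 7.17 and 5.99 CPM in WT, against 216 and 200 for nfki-1(cer1), 178 and 159 for ikb-1(nr2027) and 51.5 and 48.1 for the combined mutant. At L1 oma-1 had 1.98 and 1.56 CPM in WT, beside 1.48 and 1.20 for nfki-1(cer2) and 1.15 and 1.85 for ikb-1(cer9). No L4 group overlapped another, and at L1 nfki-1(cer2) lay just under WT while ikb-1(cer9) overlapped both. Here and below, both L4 files of a strain are 1 sample, so their separation from other strains carries no spread between samples. The share of all genes whose groups separate in this way was not computed at either stage. The log2 ratio of oma-1 to WT L4 was 4.98 (4.79 to 5.19) in nfki-1(cer1), 4.68 (4.48 to 4.88) in ikb-1(nr2027) and 2.92 (2.71 to 3.13) in the combined mutant.

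For oma-2 the L4 files gave 4.27 and 4.32 CPM in WT, against 203 and 238 for nfki-1(cer1), 173 and 202 for ikb-1(nr2027) and 38 and 45.8 for the combined mutant. The L1 libraries gave 1.87 and 2.78 CPM for oma-2 in WT, beside 1.77 and 1.70 for nfki-1(cer2) and 1.82 and 3.15 for ikb-1(cer9). WT and the combined mutant stood clear of the single mutants at L4, the L4 files of nfki-1(cer1) lay above those of ikb-1(nr2027), and at L1 nfki-1(cer2) lay under both other groups, which overlapped. Of the 10 genes oma-2 had the largest ratio in both single mutants, a log2 ratio of 5.68 (5.44 to 5.93) in nfki-1(cer1) and 5.45 (5.20 to 5.70) in ikb-1(nr2027), and it reached 3.29 (3.03 to 3.55) in the combined mutant.

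Per kilobase of exon, the balance within this pair differed between groups. Reads per kilobase on oma-1 were 1.32 times those on oma-2 in WT L4 (1.06 to 1.64), 0.811 times in nfki-1(cer1) (0.789 to 0.834), 0.773 times in ikb-1(nr2027) (0.748 to 0.80) and 1.02 times in the combined mutant (0.951 to 1.10). At L1 the ratio was 0.675 in WT, 0.665 for nfki-1(cer2) and 0.519 for ikb-1(cer9). Only the counting intervals of the single mutants lay wholly under 1 at L4, and that of WT lay wholly above 1. By these counts the order of both genes in WT was the reverse of that in the single mutants. The intervals are likely too narrow, so this reversal was not settled. The paired files did not give equal ratios, with oma-1 higher in file 1 by a log2 difference of 0.10 to 0.26 and oma-2 differing by -0.27 to -0.02, in the 4 L4 strains. In either file taken alone, the WT ratio (1.44 and 1.19) still exceeded those of nfki-1(cer1) (0.914 and 0.723) and ikb-1(nr2027) (0.886 and 0.677), although the interval of WT file 2 alone reached below 1 (0.866 to 1.64).

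The polarity pair acts in the zygote. MEX-5 and MEX-6 are closely related zinc finger proteins that gather at the anterior of the zygote and confine germ plasm to the posterior. The gene mex-5 lies on chromosome IV (13353723 to 13356104) and mex-6 on chromosome II (9524174 to 9526359). At L4 mex-5 had 15.4 and 15.7 CPM in WT, against 436 and 451 for nfki-1(cer1), 408 and 424 for ikb-1(nr2027) and 126 and 130 for the combined mutant. At L1 mex-5 had 4.12 and 5.47 CPM in WT, beside 3.97 and 3.24 for nfki-1(cer2) and 4.99 and 6.69 for ikb-1(cer9). The L4 groups were separate at mex-5, and at L1 nfki-1(cer2) lay just under WT while ikb-1(cer9) overlapped it. The log2 ratio of mex-5 to WT L4 was 4.84 (4.71 to 4.97), 4.74 (4.61 to 4.87) and 3.04 (2.91 to 3.18) in nfki-1(cer1), then ikb-1(nr2027) and the combined mutant.

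Files of mex-6 gave 4.89 and 6.42 CPM in WT L4, against 174 and 204 for nfki-1(cer1), 140 and 167 for ikb-1(nr2027) and 44.2 and 48.2 for the combined mutant. At L1 mex-6 had 1.85 and 3.26 CPM in WT, beside 1.35 and 2.17 for nfki-1(cer2) and 2.31 and 3.00 for ikb-1(cer9). The L4 groups did not overlap at mex-6, and all L1 groups did with WT. The log2 ratio of mex-6 to WT L4 was 5.06 (4.85 to 5.28) in nfki-1(cer1), 4.77 (4.55 to 4.99) in ikb-1(nr2027) and 3.03 (2.81 to 3.26) in the combined mutant. Unlike the oma pair, this pair kept mex-5 above mex-6 in every group, with 2.64, 2.25, 2.60 and 2.66 times the reads per kilobase in WT, nfki-1(cer1), then ikb-1(nr2027) and the combined mutant at L4 and 1.82 to 2.11 times at L1.

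A further 3 zinc finger proteins follow the germline blastomeres. PIE-1 keeps these cells from transcribing somatic genes, MEX-1 is needed for germ plasm to reach them, and POS-1 controls the translation of maternal mRNAs such as glp-1 and apx-1 in posterior cells. The gene pie-1 lies on chromosome III (12426893 to 12429195), mex-1 on chromosome II (11968637 to 11972330) and pos-1 on chromosome V (8414086 to 8415254). Exons of pie-1 share 24 bases with snr-6 and those of mex-1 share 18 with acbp-6, both on the other strand, and since the sources used here do not say whether reads were counted by strand, reads there cannot be assigned.

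At L4 pie-1 had 2.72 and 3.21 CPM in WT, against 46.4 and 45.9 for nfki-1(cer1), 36.6 and 36.5 for ikb-1(nr2027) and 15.6 and 15.7 for the combined mutant. At L1 pie-1 had 1.56 and 1.46 CPM in WT, beside 1.40 and 1.29 for nfki-1(cer2) and 1.56 and 1.26 for ikb-1(cer9). The L4 groups were separate, and the L1 levels lay close together with nfki-1(cer2) a little under WT. The log2 ratio of pie-1 was 3.96 (3.67 to 4.27) in nfki-1(cer1), 3.62 (3.32 to 3.94) in ikb-1(nr2027) and 2.40 (2.09 to 2.73) in the combined mutant, which stood at 34.0% of nfki-1(cer1), the highest share among the 10 genes.

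For mex-1 the L4 files gave 5.75 and 5.31 CPM in WT, against 180 and 175 for nfki-1(cer1), 169 and 164 for ikb-1(nr2027) and 46.6 and 45.1 for the combined mutant. At L1 mex-1 had 2.05 and 2.07 CPM in WT, beside 1.48 and 1.26 for nfki-1(cer2) and 2.13 and 2.29 for ikb-1(cer9). This gene had separate groups at both stages, with nfki-1(cer2) the lowest at L1. Its log2 ratio to WT L4 was 5.00 (4.79 to 5.23) in nfki-1(cer1), 4.91 (4.70 to 5.14) in ikb-1(nr2027) and 3.05 (2.83 to 3.28) in the combined mutant.

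For pos-1 the values were 8.78 and 8.64 CPM in WT L4, against 364 and 373 for nfki-1(cer1), 311 and 321 for ikb-1(nr2027) and 80.0 and 84.7 for the combined mutant. At L1 pos-1 had 2.19 and 5.02 CPM in WT, beside 1.80 and 1.32 for nfki-1(cer2) and 2.47 and 5.03 for ikb-1(cer9). It was the gene with the widest L1 spread, WT 3.61 ± 2.00 CPM (SD, n = 2), with replicate 2 higher than replicate 1 in WT and in ikb-1(cer9), and nfki-1(cer2) lay below both of these groups. The log2 ratio of pos-1 to WT L4 was 5.40 (5.23 to 5.58) in nfki-1(cer1), 5.18 (5.01 to 5.36) in ikb-1(nr2027) and 3.24 (3.06 to 3.42) in the combined mutant.

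The translational regulators outside the zinc finger class were SPN-4, PUF-5 and MEX-3. SPN-4 binds maternal mRNAs and is needed for spindle orientation in the early embryo, and PUF-5 represses glp-1 and other mRNAs in growing oocytes. The gene spn-4 lies on chromosome V (6783187 to 6784903, minus strand, 8 exonic bases shared with ZC404.15 on the other strand) and puf-5 on chromosome II (8575541 to 8577787). At L4 spn-4 had 14.5 and 14.8 CPM in WT, against 372 and 371 for nfki-1(cer1), 323 and 316 for ikb-1(nr2027) and 89.8 and 88.8 for the combined mutant. At L1 spn-4 had 2.99 and 5.23 CPM in WT, beside 2.09 and 2.68 for nfki-1(cer2) and 3.16 and 4.98 for ikb-1(cer9). The L4 groups were separate at spn-4, and at L1 nfki-1(cer2) lay under both WT libraries while ikb-1(cer9) lay within them. Its log2 ratio was 4.67 (4.53 to 4.80), 4.45 (4.31 to 4.58) and 2.61 (2.47 to 2.75) in nfki-1(cer1), then ikb-1(nr2027) and the combined mutant.

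For puf-5 the L4 files gave 10.3 and 10.1 CPM in WT, against 476 and 479 for nfki-1(cer1), 435 and 436 for ikb-1(nr2027) and 115 and 115 for the combined mutant. At L1 puf-5 had 3.91 and 4.95 CPM in WT, beside 2.47 and 2.79 for nfki-1(cer2) and 3.50 and 4.65 for ikb-1(cer9). No L4 groups overlapped, and at L1 nfki-1(cer2) lay below both other groups. Its log2 ratio of 3.50 (3.33 to 3.66) in the combined mutant was the largest of the 10, beside 5.55 (5.39 to 5.71) in nfki-1(cer1) and 5.42 (5.26 to 5.58) in ikb-1(nr2027).

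The gene mex-3 differed from the others. MEX-3 represses translation of pal-1 mRNA in anterior cells of the embryo and acts in the adult germline to maintain its identity. The gene lies on chromosome I (127285 to 134270). At L4 mex-3 had 12.9 CPM in both WT files, against 173 and 171 for nfki-1(cer1), 167 and 166 for ikb-1(nr2027) and 48.1 and 44.3 for the combined mutant. At L1 mex-3 had 22.9 and 25.1 CPM in WT, 23.4 and 22.9 in nfki-1(cer2) and 27.4 in both ikb-1(cer9) libraries. Its L4 groups were separate, every L1 library lay above WT L4, and ikb-1(cer9) lay above the other L1 groups. The log2 ratio of mex-3 to WT L4 was 3.74 (3.59 to 3.88) in nfki-1(cer1), 3.69 (3.55 to 3.84) in ikb-1(nr2027) and 1.84 (1.69 to 2.00) in the combined mutant, the smallest of the 10 in nfki-1(cer1) and in the combined mutant.

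Whether the L4 differences exceed the spread between replicates could be asked only with a borrowed spread. A single edgeR fit took in all 7 groups, and in its quasi-likelihood test each lone L4 sample is assumed to vary like the L1 libraries, and genes were called at a Benjamini-Hochberg adjusted p under 0.01. The sources differ on these libraries: the titles number 2 replicates per strain at both stages, whereas the design text counts 2 at L4 and 1 at L1. Nothing says that the L1 libraries came from separate cultures, so the spread that every edgeR test here and each L1 SD rests on may be technical. The tests share the WT L4 sample, so the single mutant and combined mutant comparisons are not independent.

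Against WT L4, nfki-1(cer1) passed this test as higher at 9 of the 10 genes, where 2.16% of all genes tested were called higher. The smallest edgeR adjusted p, 0.00525, was shared by mex-1 (log2 fold change 5.00 ± 0.30, SE), mex-3 (3.74 ± 0.27) and puf-5 (5.55 ± 0.40). The exception was pos-1, whose log2 fold change of 5.40 had an SE of 0.81 and an edgeR adjusted p of 0.0129. In ikb-1(nr2027) 7 of 10 genes passed the test as higher, beside 0.916% of all genes. The others, mex-6 (edgeR adjusted p = 0.0112), spn-4 (0.0118) and pos-1 (0.0179), did not pass. Their log2 fold changes were 4.77, 4.45 and 5.18. These calls rested on the whole set of L1 libraries. Without either library of nfki-1(cer2) or of ikb-1(cer9), 0 of 10 genes and 0% of all genes were called higher in both single mutants, with edgeR adjusted p of 0.0161 to 0.0283 in nfki-1(cer1) and 0.0197 to 0.0383 in ikb-1(nr2027). Without replicate 2 of WT L1, 7 genes were called for nfki-1(cer1) (0.409% of all genes) and 0 for ikb-1(nr2027) (0%), and without its replicate 1, 9 (0.838%) and 5 (0.319%). With the L1 replicate number as a block, 10 of 10 genes were called higher in each single mutant, beside 8.9% of all genes for nfki-1(cer1) and 6.96% for ikb-1(nr2027), and the block is given here because same-numbered L1 libraries deviated together.

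In the combined mutant 0 of 10 genes passed the edgeR test against WT, where 0% of all genes were called higher. The 10 log2 fold changes ran from 1.84 to 3.50 with edgeR adjusted p of 0.0524 (mex-1 and puf-5) to 0.141 (pos-1), and all 10 had an unadjusted edgeR p under 0.05, as did 1831 genes higher and 1001 lower in all. DESeq2 on the same samples called 10 of 10 higher beside 2% of all genes, and the replicate block called 3 of 10 beside 0.169%, namely mex-1, mex-6 and puf-5, each at an edgeR adjusted p of 0.0085.

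The combined mutant was the mildest of the L4 mutants at each of the 10 genes. It held 19% (oma-2) to 34.0% (pie-1) of the level in nfki-1(cer1), with a median of 24.3%, and 22.4% (oma-2) to 42.9% (pie-1) of that in ikb-1(nr2027), with a median of 27.9%. By edgeR 0 of 10 genes and 0% of all genes were called lower than in nfki-1(cer1), with log2 fold changes of -2.39 to -1.56 and adjusted p of 0.0426 to 0.154, and 0 of 10 genes and 0% of all genes were lower than in ikb-1(nr2027), at -2.16 to -1.22 and adjusted p of 0.072 to 0.239. The unadjusted edgeR p was under 0.05 at 10 of 10 genes in both comparisons, where 2507 genes were lower and 1944 higher than in nfki-1(cer1), and 2181 lower and 1434 higher than in ikb-1(nr2027). The replicate block called 6 genes lower than in nfki-1(cer1) (oma-2, mex-6, mex-1, mex-3, spn-4 and puf-5) beside 2.15% of all genes, and 0 lower than in ikb-1(nr2027) beside 0%. DESeq2 called 9 and 7 of the 10 lower in these comparisons, beside 4.64% and 3.47% of all genes.

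Between the single mutants the differences were small. Each of the 10 genes was higher in nfki-1(cer1), by 1.03-fold (mex-3) to 1.26-fold (pie-1), beside a median log2 fold change of 0.00 over all genes tested. The share of all genes whose counting interval excludes 0 was not computed. For the 10 genes the counting interval of the log2 ratio excluded 0 at every gene but mex-3 (0.04, -0.00 to 0.09). None reached the edgeR threshold, where 0% of all genes were called higher, and all 10 adjusted p values were 1. Genes with an unadjusted edgeR p under 0.05 were 172 higher and 256 lower in all, with 0 of the 10 among them, and DESeq2 also called 0 genes. The SE of these log2 differences was 0.24 to 0.67, larger than the difference at every gene but pie-1, so the order of the single mutants was not settled beyond the spread between L1 libraries.

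At L1 no gene of the 10 passed the test in either mutant, and 0% of all genes did so for nfki-1(cer2) and 0% for ikb-1(cer9). In nfki-1(cer2) all 10 log2 fold changes were negative, from -1.20 (pos-1) to -0.05 (mex-3), beside a median of -0.01 over all genes tested. That range rested on the WT libraries: without WT replicate 2 it was -0.59 (mex-1) to 0.01 (mex-3), with pos-1 at -0.50, and without WT replicate 1 pos-1 stood at -1.68. The unadjusted edgeR p was 0.02 for mex-1 (-0.59) and 0.0194 for puf-5 (-0.75), beside 94 genes higher and 173 lower at an unadjusted p under 0.05 in all, and every edgeR adjusted p of the 10 genes was 1. In ikb-1(cer9) the log2 fold changes ran from -0.24 (oma-1) to 0.28 (mex-5), and with any 1 library of WT or ikb-1(cer9) left out from as low as -0.63 to as high as 0.74, with 0 of the 10 genes at an unadjusted p under 0.05 among 197 genes higher and 127 lower. DESeq2 called 1 gene in all for nfki-1(cer2) (0.0047%) and 7 for ikb-1(cer9) (0.0329%), and 0 of the 10 in both.

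Between stages in WT, mex-3 went the other way from the rest. The other 9 genes had more reads at L4 than at L1, with log2 fold changes of 0.89 (oma-2) to 1.89 (oma-1), and oma-1 (edgeR adjusted p = 0.00639), mex-5 (0.00629) and mex-1 (0.00404) passed the test, 3 of 10 beside 11.5% of all genes. For mex-3 the log2 fold change was -0.90, with an SE of 0.22 and an edgeR adjusted p of 0.0188. Over all genes tested the median log2 fold change of this comparison was -0.59, so relative to that median the 9 genes stood higher still and mex-3 a little under it. The replicate block called 6 genes higher and mex-3 lower, beside 18.5% and 19.3% of all genes. Its coding sets the L4 samples with L1 replicate 1, so WT L4 was there compared with the replicate 1 level of WT L1. The median log2 fold change of the 10 genes was 1.46 in that fit, against 1.24 without the block. Scaling by library totals alone called 0 of the 10 genes higher (7.27% of all genes) and mex-3 lower, at -1.47 (16.3%), and moved the calls over all genes from 2453 higher and 2519 lower to 1549 and 3469. Without WT L1 replicate 1 or 2, 0 of 10 genes were called higher, beside 7.25% and 7.01% of all genes. Without replicate 1 or 2 of nfki-1(cer2) 1 of 10 was called (9.1% and 8.98% of all genes), as was 1 of 10 without either library of ikb-1(cer9) (7.57% and 7.4%).

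The difference from WT was larger at L4 than at L1 at all 10 genes for both pairs of mutants, which also differ in allele. For the nfki-1 mutants the L4 less L1 log2 difference ran from 3.79 (mex-3) to 6.60 (pos-1), and the edgeR interaction test called mex-1 alone (5.59 ± 0.34, SE, adjusted p = 0.00941), 1 of 10 beside 0.047% of all genes. For the ikb-1 mutants it ran from 3.50 (mex-3) to 5.54 (puf-5) with 0 of 10 called, beside 0% of all genes, and with edgeR adjusted p of 0.0141 to 0.0382. There all 10 genes had an unadjusted p under 0.05, as did 2846 genes higher and 2151 lower, and DESeq2 called 10 of 10 beside 5.31% of all genes. With the replicate block all 10 genes were called in both interactions, beside 4.39% of all genes for the nfki-1 mutants and 3.36% for the ikb-1 mutants. With no block and without any 1 of the 6 L1 libraries, 0 of the 10 and 0 of all genes were called in either interaction.

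Compared per kilobase of exon within a group, the 10 genes kept part of their order. At L4 pie-1 was the lowest in all 4 strains, at 2.66 CPM per kilobase in WT and 41.4, 32.7 and 14.0 in nfki-1(cer1), then ikb-1(nr2027) and the combined mutant. The leading gene was spn-4 in WT (9.62 CPM per kilobase), and pos-1 in the mutants (330, 283 and 73.7), where it stood at 7.80 in WT next to mex-5 at 7.87. In ikb-1(nr2027) mex-5, puf-5 and spn-4 were nearly level, at 211, 210 and 210 CPM per kilobase. At L1 mex-3 led in each group with 11.8, 11.3 and 13.4 CPM per kilobase, and the next gene reached 3.23 in WT (pos-1), 1.83 in nfki-1(cer2) (mex-5) and 3.36 in ikb-1(cer9) (pos-1).

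The shape of the 7-group profile was close among most of the 10 genes. Each profile was taken as log2 CPM (prior count 2) of the 7 group values, centred on its own mean, and its distance from the mean profile of the 10 genes was the root mean squared difference. The mean profile stood at -1.22 in WT L4, 3.66, 3.46 and 1.66 in the L4 mutants, and -2.35, -2.88 and -2.32 at L1. The distance was 0.068 for mex-6, 0.206 for mex-1, 0.252 for mex-5, 0.256 for oma-2 and 0.320 for spn-4. It was 0.409 for puf-5, 0.417 for oma-1, 0.427 for pos-1, 0.556 for pie-1 and 1.547 for mex-3. Of the 10 genes, only mex-6 lay nearer to the mean profile than the 5 genes outside the set given next. Of the 21293 genes, the 5 nearest outside the set were W06B4.1 (0.108), H02I12.5 (0.125), cbd-1 (0.150), rme-2 (0.152) and C05C10.5 (0.169). Of these, rme-2 encodes the yolk receptor of the oocyte and cbd-1 a chitin-binding protein of the eggshell. Over only 7 group values this is a description of likeness and carries no test.

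**Figure D3:**
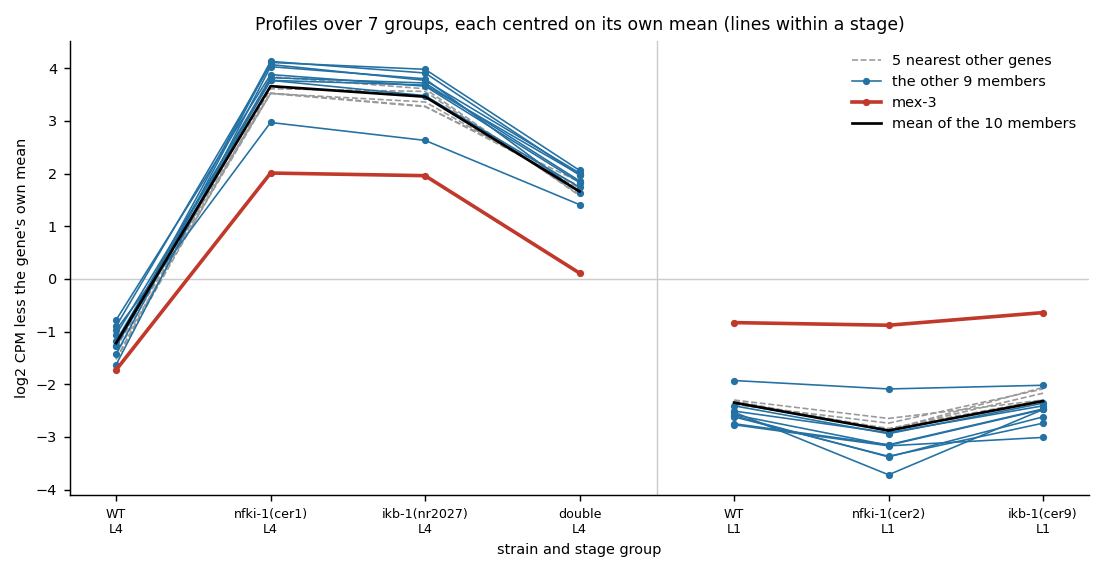
Log2 CPM (prior count 2) less each gene's own mean (vertical axis) in the 7 groups (horizontal axis), lines joined within a stage, for mex-3 (red), the other 9 genes (blue), their mean (black) and the 5 nearest other genes (grey dashes). The profiles fall close together except mex-3, which is lower than the mean in the L4 mutants (2.01 against 3.66 in nfki-1(cer1)) and higher at L1 (-0.83 against -2.35 in WT).

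Other genes of the same biology were described from fixed lists, by the count past the fold at L4, with 3 values always in the order nfki-1(cer1), then ikb-1(nr2027), then combined mutant, and with WT first where 4 are given. Of 23 other RNA regulators of germ cells and oocytes 22 were tested, and 18, 17 and 10 of them were higher past the fold, with 0 lower and medians of 3.17, 2.92 and 1.61. The edgeR test called 8, 6 and 0 of these higher. The 3 with the highest mean L4 CPM were cgh-1, a DEAD-box helicase of maternal mRNA granules (149, 1639, 1558 and 597 CPM), its partner car-1 (243, 956, 928 and 513) and larp-1, a La-related protein also made in the soma (237, 509, 539 and 248). Counts of puf-6 and puf-7 are uncertain, since these genes are near-identical copies.

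Factors that act on the 10 proteins were less uniform. Of 20 such factors for egg activation, cell polarity and protein turnover, 8, 6 and 4 were higher past the fold, 0 were lower, and the medians were 1.64, 1.56 and 0.50. By edgeR 3, 3 and 0 were called higher. The kinase regulator cyb-3, a B-type cyclin, had 41.5 CPM in WT and 375, 347 and 128 in the mutants. By contrast par-5, a 14-3-3 protein of the polarity network, had 1177, 870, 919 and 1181 CPM, and kin-19, a casein kinase, had 255, 243, 246 and 248.

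The 7 maternal mRNAs taken as their targets were higher past the fold at 6, 6 and 2 genes, with medians of 3.01, 2.76 and 1.28, and the edgeR test called 4, 2 and 0. The Notch receptor glp-1 had 13.6 CPM in WT and 206, 159 and 33.7 in the mutants. The ubiquitin ligase adaptor zif-1 had 11, 74.8, 66.6 and 23.7 CPM, and skn-1, a transcription factor also active in the intestine, had 157, 202, 203 and 138. The gene nos-2 was on this list and on that of other RNA regulators, and zif-1 on this list and on that of turnover factors.

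Markers of cell types moved beside the 10 genes. Of 9 oocyte surface and eggshell genes, 9, 9 and 8 were higher past the fold, with medians of 5.35, 5.04 and 3.29 and 6, 6 and 0 called by edgeR, and their summed level was 179, 6201, 5489 and 1838 CPM, led by cpg-2, cbd-1 and cpg-1. Of 19 mitotic and meiotic germ cell genes, 18, 18 and 4 were past the fold, with medians of 2.91, 2.90 and 1.72 and 12, 7 and 0 called by edgeR, and summed levels of 317, 2115, 2020 and 967 CPM, led by pgl-1, glh-1 and pgl-3. Neither list had a gene at 0 in any L4 group. Thus the germline lists had the same order of strains as the 10 genes, and the oocyte list had medians close to theirs. Of 19 sperm genes 16 were tested, 8, 7 and 5 were past the fold with medians of 2.00, 1.85 and 1.81, edgeR called 0, and the sums were 59.6, 212, 210 and 207 CPM with 4, 3, 3 and 3 listed genes at 0. The leading sperm genes ssp-16, spe-11 and gsp-3 had 16.6, 6.18 and 6.61 CPM in WT and 52.9, 23.2 and 26.1 in the combined mutant. Only uniquely aligned reads were counted, so levels of sperm genes with near-identical copies may be too low, and a count of 0 does not show a silent gene.

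Genes whose expression starts around the adult molt moved too. All 7 of the vitellogenins and col-19, a collagen of the adult cuticle, were past the fold in each L4 mutant, with medians of 4.36, 5.08 and 3.36 and 1, 1 and 0 called by edgeR, and their summed level was 1555 CPM in WT and 26058, 31834 and 15985 in the mutants, led by vit-6, vit-2 and col-19. In the hypodermis list the cuticle collagens rol-6 and dpy-7 had 790 and 306 CPM in WT. Their levels were 90.8 and 16.3 for nfki-1(cer1), 131 and 19.4 for ikb-1(nr2027) and 367 and 35.2 for the combined mutant. The list's other gene, elt-1, had 6.64, 9.15, 8.79 and 5.53. Muscle, intestine and neuron markers had 0 genes past the fold in either direction, with medians of -1.08, -1.0 and -0.79 for nfki-1(cer1), -0.64, -0.99 and -0.81 for ikb-1(nr2027) and -0.53, -0.52 and -0.37 for the combined mutant. Of these, unc-54, unc-15 and myo-3 led the muscle list, ges-1, elt-2 and elt-7 formed the intestine list, and snb-1, unc-64 and unc-119 led the neuron list. The fourth muscle gene, myo-2, a myosin heavy chain of the pharynx, went against its list, with 9.73 CPM in WT and 10.1, 21.5 and 22.7 in the mutants, or log2 ratios of 0.06, 1.14 and 1.22, where the 3 leading muscle genes had -1.24 to -0.46. The part of these other genes, or of the animals' developmental timing, in the levels of the 10 regulators was not tested.

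**Figure D4:**
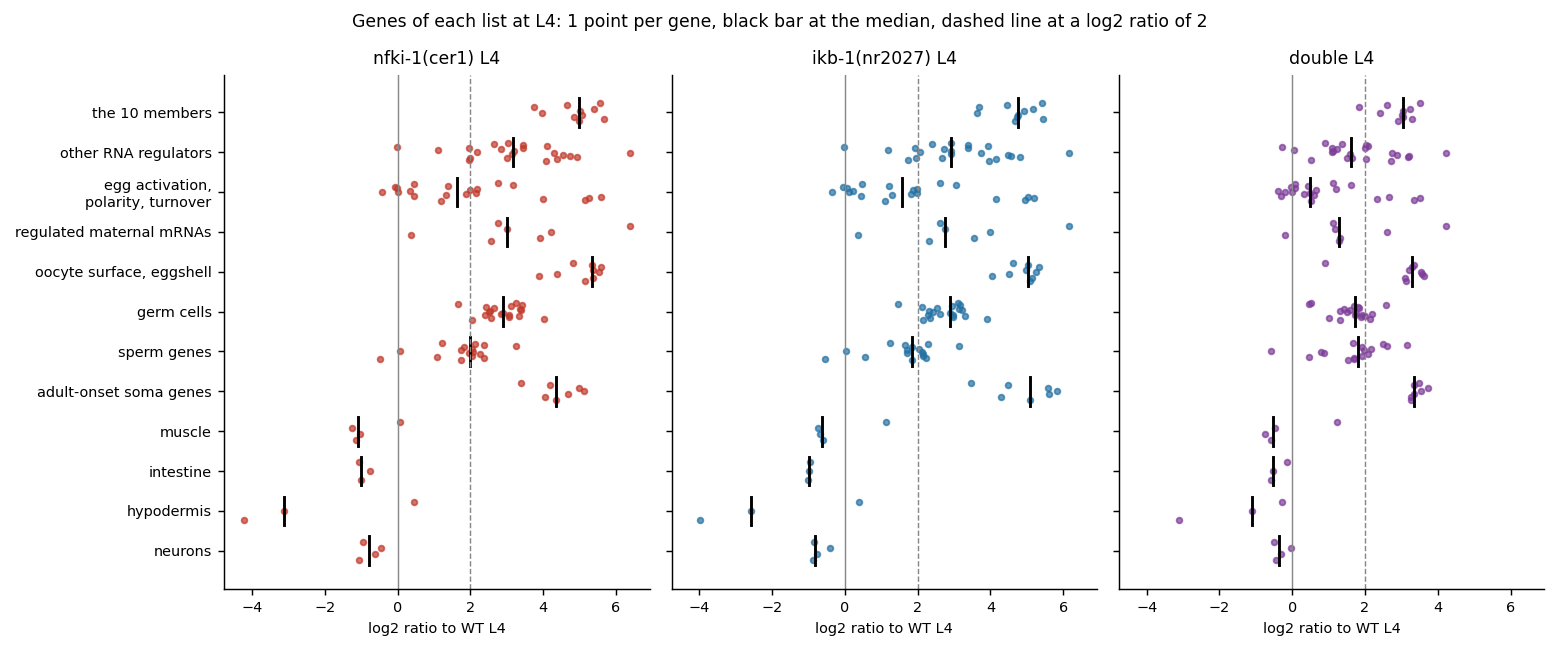
Log2 ratio to WT L4 (horizontal axis) of each tested gene in the 10-gene set and in 11 fixed lists (vertical axis) for nfki-1(cer1), then ikb-1(nr2027) and the combined mutant ("double"), with 1 point per gene, a black bar at the list's median and a dashed line at a log2 ratio of 2. The 10 genes (medians 4.99, 4.75 and 3.04), the oocyte and eggshell genes (5.35, 5.04 and 3.29) and the adult-onset genes (4.36, 5.08 and 3.36) lie farthest right, and the medians of the muscle, intestine and neuron lists lie at -0.37 or lower, with myo-2 in the muscle list at up to 1.22.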

How the data were processed

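RNA-seq counts of whole larvae in 14 files were analysed. According to the paper's methods and the labels, the authors trimmed reads, aligned them to WBcel235 with Bowtie2 and counted uniquely aligned reads per gene with HTSeq. The deposited counts carry no normalization, the annotation release and strand setting are not given in the sources used here, and the lines that name no gene (13.4% to 20.0% of reads) were left out.

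Both L4 files of a strain were summed. R 4.3.3 with edgeR 4.0.16 (filterByExpr, minimum count 10, TMM, quasi-likelihood test without a block) was fitted over the 4 summed L4 samples and 6 L1 libraries in 7 groups. CPM values are counts per 1000000 TMM-scaled reads of the 21293 genes kept. Each SE of a log2 fold change was derived from the test, as the absolute log2 fold change divided by the square root of the quasi-likelihood F statistic. Same-numbered L1 libraries deviated together over 12390 genes (r of their replicate differences 0.49 to 0.763), so block values are given where they change a call. Positions and exon lengths came from Ensembl release 115 of WBcel235. Alternatives were DESeq2 1.42.0, other scalings, filters and thresholds, each L1 library left out, and 1 L4 file of every strain left out. Code was tested on simulated data. Python 3.11.15, pandas 2.3.3, scipy 1.17.1 and matplotlib 3.10.9 made the tables and figures.

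The 10 genes and the lists were chosen with earlier results of these data known. All 10 genes were named, with nfki-1 and ikb-1 as a check, the 3 genes of each list with the highest mean L4 CPM, and the 5 genes nearest in profile. Other genes, chosen after their values were seen, are nos-2, puf-6, puf-7 and myo-2. Intervals cover counting error only and at L4 are likely too narrow, and p-values measure only the spread between L1 libraries.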

Additional observations from a re-analysis of the deposited data

Results flagged for a closer look

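The L4 less L1 difference from WT at mex-1 in the nfki-1 mutants was 5.59 on the log2 scale. It drew attention because edgeR's interaction test between the stages passed the threshold at this gene (adjusted p = 0.00941). The stages also differ in allele, nfki-1(cer1) at L4 and nfki-1(cer2) at L1, in read depth and perhaps in sequencing run, so these cannot be told apart. Without any 1 of the 6 L1 libraries the call was lost.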

How the results depend on the processing

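No value of the 10 genes that carries a call changed direction under any alternative run, and the log2 ratios to WT L4 kept all 10 genes past the fold in both single mutants under each. The counts of all genes moved more. Requiring at least 10 counts in every library left 1817 genes past the fold in nfki-1(cer1) (3653 in the reported values), 1390 in ikb-1(nr2027) (3122) and 571 in the combined mutant (2003), because fewer genes were then tested. Leaving out either file moved none of these by 1.5 times.

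For the edgeR comparisons against WT L4, nfki-1(cer1) had 528 genes called, 864 with library totals alone, 1386 with no filter, 971 with at least 10 counts in every library, 3439 by DESeq2 and 3194 at an adjusted p under 0.05, and ikb-1(nr2027) had 204, then 464, 930, 432, 2585 and 2217. The combined mutant had 0, then 60 with no filter and 599 by DESeq2. Against nfki-1(cer1) it had 0 genes called, 1334 by DESeq2 and 479 at an adjusted p under 0.05, and against ikb-1(nr2027) 0 and 831 by DESeq2. At L1, 0 genes were called, and DESeq2 called 1 for nfki-1(cer2) and 7 for ikb-1(cer9), where no filter called 1. WT L4 against WT L1 had 4972 genes called, 7688 by DESeq2 and 10167 at an adjusted p under 0.05. The L4 less L1 difference had 10 genes called for the nfki-1 mutants, 133 with library totals alone, 497 with no filter, 117 with at least 10 counts in every library, 1896 by DESeq2 and 1388 at an adjusted p under 0.05, and for the ikb-1 mutants 0, then 363 with no filter, 1541 by DESeq2 and 942 at an adjusted p under 0.05. The cause of these differences was not tested.

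With the L1 replicate block, the counts were 2960 for nfki-1(cer1), 2084 for ikb-1(nr2027) and 41 for the combined mutant against WT L4, 548 for the combined mutant against nfki-1(cer1), 8062 for WT L4 against WT L1, and 1255 and 865 for the interactions, nfki-1 and then ikb-1. Of these, the count of 8062 compares WT L4 with the replicate 1 level of WT L1. The block changed no other call of the 10 genes than those given with the results. Fitting the 8 L4 files as separate libraries, which takes the spread between files of 1 sample as error, called 10458, 9990 and 7359 genes for nfki-1(cer1), then ikb-1(nr2027) and the combined mutant against WT, 8488 and 7708 for the combined mutant against each, and 1202 between the single mutants, and with the replicate block 12277, 11930, 9951, 10815, 10248 and 4754.

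Leaving out 1 L1 library at a time gave 0 to 189 genes for nfki-1(cer1) against WT L4 and 0 to 69 for ikb-1(nr2027). The same runs gave 3105 to 3585 genes for WT L4 against WT L1 and 0 for the nfki-1 interaction. Leaving out file 1 of every L4 strain gave 463 genes for nfki-1(cer1) and 123 for ikb-1(nr2027). Without file 2 of every L4 strain these were 438 and 146. Depth limits the low end: pie-1 had 96 counts in the summed WT L4 files, and the 10 genes had 76 counts or more in each L1 library.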
